A study of Danio rerio with 27 samples.

Results

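Collagens are the main structural proteins of the extracellular matrix, and this account follows their transcripts in whole zebrafish larvae across 6 groups. Every entry of the deposited count table whose symbol begins with the name of a collagen chain was taken, which gave 58 of 39988 entries. Of these, 56 were collagen chains under 55 symbols, since col27a1a stood on 2 entries. The other 2, col4a3bpa and col4a3bpb, encode ceramide transfer proteins and were left out of all counts of chains. Of the 56 chain entries 53 had at least 1 count, and 50 passed the filter on low counts and were tested among 15521 genes.

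A collagen molecule is a triple helix of 3 chains, which may come from 1 gene or from several. Types 1, 2, 3, 5 and 11 assemble into fibrils: type 1 with type 5 in skin, bone and tendon, and type 2 with type 11 in cartilage. Type 9 sits on the surface of cartilage fibrils, type 10 is made by hypertrophic chondrocytes and, in zebrafish, by osteoblasts as well, and type 4 forms the sheet-like network of basement membranes. Many zebrafish collagen genes exist as a pair of copies named a and b.

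The larvae were 21 days old, counted from fertilisation, and each library came from a pool of whole animals, so bone, cartilage, skin, muscle, liver and all other tissues contributed to 1 value. The wild-type (WT) background was compared with the PY background. PY carries more than 1 engineered change, among them constitutive YAP overexpression in the liver, and is described as tumour-burdened and wasting. YAP is a transcriptional coactivator that promotes growth. In every group, the controls included, embryos had received CRISPR/Cas9 against the melanin transporter SLC45a2, a pigmentation marker. The groups called SLC45a2-KO received nothing further. The groups called TGR5-KO were also edited in the bile acid receptor TGR5 (gene gpbar1), and those called CYP7a1-KO in CYP7a1, an enzyme of bile acid synthesis. Each WT group had 4 libraries and each PY group 5. The knockouts were made in injected animals, with no stable line, and how many cells of a pool were edited is not given in the sources used here.

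Library totals ran from 3377345 to 6238251 counts, and the limit that a count of 0 allows by counting error alone (3 counts) was 0.481 to 0.888 CPM, where CPM is a gene's count scaled to a fixed library total. The transcripts of slc45a2 and gpbar1 had 20 and 45 counts over all 27 libraries. The cyp7a1 transcript was not lower in CYP7a1-KO than in SLC45a2-KO larvae (means of 44.7 and 2.4 CPM in WT, 12.3 and 8.56 CPM in PY). Reads were taken at the 3′ end and where the guides cut is unknown here, so these levels are no check of the editing. Pearson's r between libraries of a group, over log2 CPM of genes, was 0.912 to 0.951 among the PY groups and 0.952 to 0.965 among the WT groups. PY CYP7a1-KO libraries 1 and 2 stood apart from the other 3 of their group, so calls of named genes that were lost without both of them are marked. The 2 did not always deviate in the same direction. For col9a2 and col2a1b, given below, library 1 was the highest of the group and library 2 the lowest.

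Values below are CPM after TMM scaling, a correction for differences in composition between libraries. Changes are log2 differences from edgeR's quasi-likelihood test, called at an adjusted p under 0.05 over all 15521 genes. The standard error beside each change was derived from that test, as the size of the change over the square root of its F statistic. A CPM is read here as a comparison of 1 gene between samples and not of 1 gene with another.

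Several chains could hardly be read. The chain genes col1a1a and col2a1a had 4 and 3 counts in all 27 libraries together, and col6a3, col8a1a and the second col27a1a entry had 0. The transmembrane collagen gene col13a1, with 93 counts, also stayed under the filter. No entry for a type 3 chain matched. Type 1 collagen is therefore represented here by col1a1b and col1a2, type 2 by col2a1b and type 6 by col6a1, col6a2 and col6a4a. Those 2 type 1 genes held 53.4% of all collagen counts. Whether the unread chains were little expressed or missed in the counting was not tested. Shares and sums of collagen counts therefore cover only the chains that were read.

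Collagen transcripts were a smaller share of the counts in PY larvae with SLC45a2-KO alone than in WT larvae with SLC45a2-KO alone. Collagen chains took 0.386% ± 0.0712 of the counts in PY (SD, n = 5, range 0.290 to 0.473%) and 0.728% ± 0.0426 in WT (SD, n = 4, 0.685 to 0.780%), with no overlap. Of 50 tested chains 31 were lower in PY and 4 were higher, where 35.6% of all genes tested passed, 17.9% higher and 17.7% lower. The median log2 change was -0.78 over the chains and -0.02 over all genes. The CPM of 31 chains did not overlap between these groups, 27 of them lower in PY, and among all genes tested 30.4% did not overlap. In RNA from whole larvae, fewer cells of a type, less RNA per cell and a larger share of RNA from other tissues cannot be told apart.

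**Figure D1:**
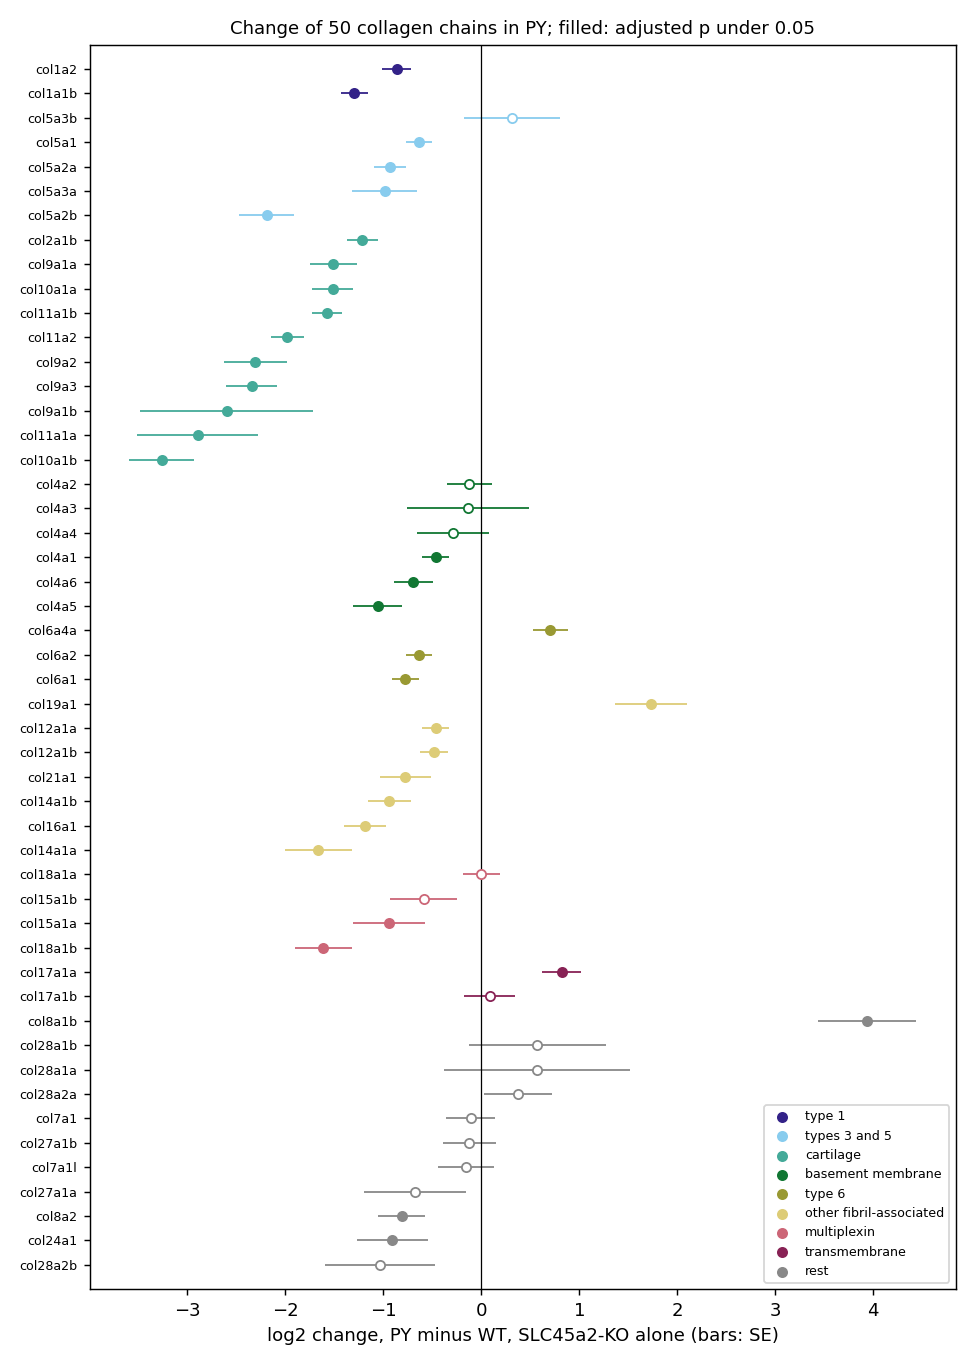
Log2 change of each of 50 collagen chains between PY and WT larvae with SLC45a2-KO alone (x axis, PY minus WT, bars SE), grouped by chain class on the y axis, with filled points at an adjusted p under 0.05. All 10 cartilage chains lie left of 0, and the 4 filled points on the right are col8a1b, col19a1, col17a1a and col6a4a.

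Both type 1 genes fell in PY. In zebrafish the chain of col1a1b joins those of col1a1a and col1a2 in the main fibril of skin, bone and tendon. In PY SLC45a2-KO the 5 libraries had 1113, 607, 867, 1049 and 1067 CPM of col1a1b. In WT SLC45a2-KO the 4 libraries had 2388, 2156, 2368 and 2316 CPM. Every PY library was below every WT library, and the change was -1.29 ± 0.14 (edgeR adjusted p = 1.18e-10). For col1a2, the partner chain, the PY libraries had 1322, 649.7, 837, 1262 and 1125 CPM and the WT libraries 2005, 1819, 1926 and 1812 CPM. Again no values overlapped, and the change was -0.86 ± 0.15 (edgeR adjusted p = 1.36e-05).

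Type 5 collagen starts type 1 fibrils and limits their diameter. Of its 5 tested chains 4 were lower in PY, with a median of -0.93 over the 5. The abundant chain gene col5a1 stood at 432 ± 92.0 CPM in PY and 672 ± 79.9 in WT (SD, n = 5 and 4), a change of -0.64 ± 0.13. For col5a2b the PY libraries had 21.0, 7.38, 9.95, 8.01 and 8.48 CPM and the WT libraries 58.8, 47.3, 50.6 and 43.7 CPM, which did not overlap. Library 1 of PY was the highest of its group by a wide margin, and the change was -2.19 ± 0.28 (edgeR adjusted p = 1.28e-07). Its copy col5a2a changed by -0.93 ± 0.16. The call of col5a3a (-0.99 ± 0.33) was lost without WT SLC45a2-KO library 1 or PY SLC45a2-KO library 2. The remaining chain, col5a3b, was at 0.31 ± 0.49 and did not pass.

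The cartilage chains had the lowest median of the classes. All 10 that were tested, of types 2, 9, 10 and 11, were lower in PY, with a median log2 change of -2.14 and a range from -3.26 to -1.21. Their summed level was 396.7 ± 58.2 CPM in PY and 1258 ± 154.9 CPM in WT (SD, n = 5 and 4). The 8 chains of this class other than the rare col11a1a and col9a1b were also called when any single library of either group was left out.

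For col2a1b, a chain of the main cartilage fibril, the PY libraries had 182, 82.6, 109, 119 and 130.4 CPM and the WT libraries 338, 259.8, 254 and 304 CPM. The groups did not overlap, and the change of -1.21 ± 0.16 (edgeR adjusted p = 3.23e-08) was the smallest of the 10. Type 11 collagen, which sets fibril thickness in cartilage, was read through 3 genes. Its chain gene col11a2 had 67.9, 53.1, 36.6, 53.0 and 47.9 CPM in the PY libraries and 266, 187, 185 and 179 CPM in the WT libraries, with no overlap and a change of -1.98 ± 0.17 (edgeR adjusted p = 6.92e-13). The partner chain gene col11a1b changed by -1.57 ± 0.15, and the low-count gene col11a1a, at a mean of 3.28 CPM over all libraries, by -2.89 ± 0.62.

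Type 9 chains coat the cartilage fibril. The col9a2 transcript was at 28.6, 38.5, 34.3, 43.1 and 38.8 CPM in PY and 224, 152.4, 172 and 177 CPM in WT. The highest PY library was well below the lowest WT library, and the change was -2.30 ± 0.32 (edgeR adjusted p = 4.9e-06). The other chains of the molecule, col9a3 and col9a1a, changed by -2.34 ± 0.26 and -1.51 ± 0.24. The rare copy col9a1b, with 0 counts in 9 of 27 libraries, changed by -2.60 ± 0.88.

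Type 10 collagen marks late, hypertrophic cartilage and, in zebrafish, bone-forming cells. Its gene col10a1a had 106, 87.5, 85.3, 76.5 and 85.4 CPM in PY and 260.2, 246, 256 and 249 CPM in WT, which did not overlap (-1.52 ± 0.21, edgeR adjusted p = 1.3e-06). The copy col10a1b had 10.4, 4.72, 2.24, 2.21 and 3.6 CPM in PY and 45.9, 34.7, 45.4 and 55.0 CPM in WT. Its change of -3.26 ± 0.33 (edgeR adjusted p = 3.19e-09) was the most negative of all 50 chains, and PY library 1 was the highest of its group.

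Markers of the cells that make these matrices, and of other cells, moved in the same comparison, in which 17.7% of all genes were lower and 17.9% higher. Of 13 tested cartilage markers other than collagens 8 were lower and 1 higher, with summed levels of 254.8 to 290.1 CPM in PY and 446.2 to 533.6 CPM in WT. Among them matn1, a cartilage matrix adaptor, changed by -1.85 ± 0.38, while sox9b, a transcription factor of chondrocytes and other cells, changed by 1.74 ± 0.18. The cartilage marker snorc had no counts in any group. Of 9 tested bone markers 7 were lower and 1 higher (sums of 231.5 to 350.3 CPM in PY, 734.2 to 823 in WT), with bglap at 0 in all groups. Among these sp7, a transcription factor of osteoblasts, changed by -2.15 ± 0.32, and the call of the exception, alpl, was lost without any of 6 libraries. All 12 markers of tenocytes and fibroblasts were tested, and 9 were lower and 0 higher (sums of 336.2 to 496.7 CPM in PY, 824.7 to 933.1 in WT). The tendon marker tnmd changed by -1.29 ± 0.14. Of 5 hepatocyte markers 3 were higher in PY and 0 lower (sums of 16640 to 23610 CPM in PY, 10710 to 13980 in WT), with none at 0. Of 3 tested muscle markers 2 were lower and 1 higher (sums of 16660 to 23820 CPM in PY, 27870 to 34900 in WT, without overlap), with ckma at 0 in both groups. The call of the higher one, myhz1.1, was lost without any of 6 libraries. Of 3 tested macrophage markers 1 was higher and 0 lower (sums of 104.1 to 169.1 CPM in PY, 91.7 to 118.4 in WT), namely marco at 1.73 ± 0.30. The macrophage marker mpeg1.1 had counts in no group other than WT SLC45a2-KO, so it was at 0 in most of the series. The part of these cell types in the collagen changes was not tested.

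**Figure D2:**
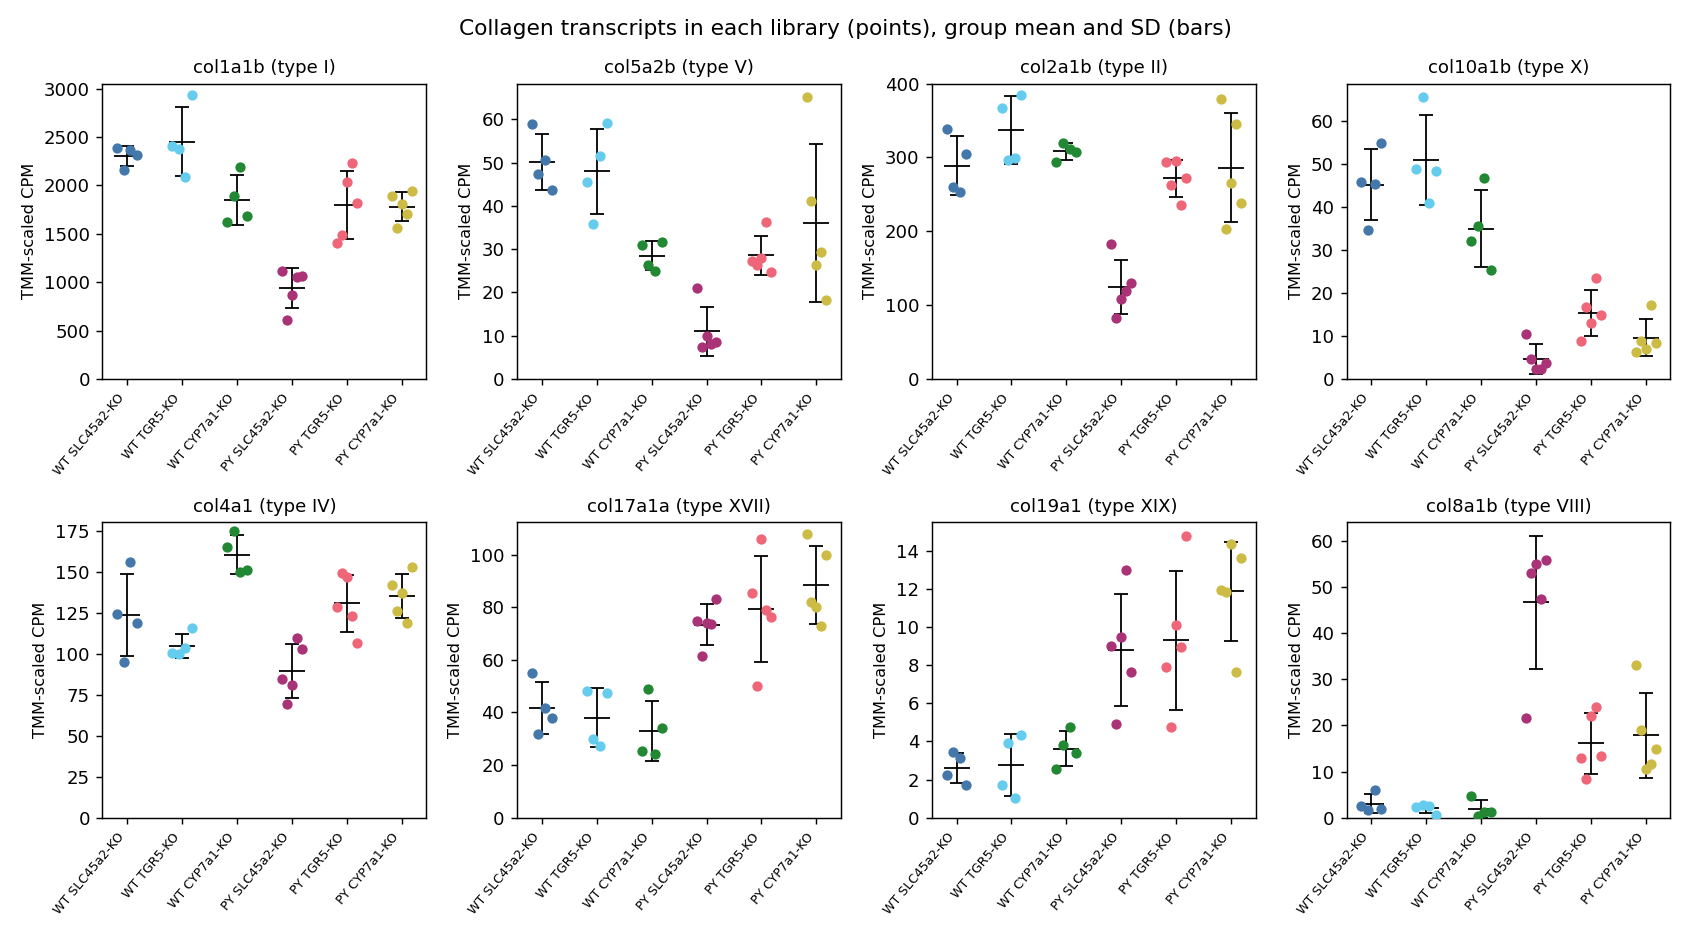
TMM-scaled CPM (y axis) of 8 collagen genes in each library of the 6 groups (x axis), with points for libraries and bars for the group mean and SD. For col1a1b, col5a2b, col2a1b and col10a1b the PY SLC45a2-KO libraries form the lowest group. For col17a1a, col19a1 and col8a1b the 3 PY groups lie above the WT groups on average.

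Fibril-associated collagens outside cartilage link fibrils to their surroundings. Of 7 tested 6 were lower in PY, with a median of -0.78. The tendon and fascia collagen genes col12a1a and col12a1b changed by -0.47 ± 0.14 and -0.48 ± 0.14, and col14a1a and col14a1b by -1.66 ± 0.34 and -0.94 ± 0.22. The gene col16a1, a minor fibril-associated chain, changed by -1.19 ± 0.21 (edgeR adjusted p = 2.66e-05). The call of col21a1 (-0.78 ± 0.26) was lost without WT SLC45a2-KO library 3 or PY SLC45a2-KO library 2.

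The exception among them was col19a1, which is needed for motor axon growth in zebrafish embryos. Its PY libraries had 9.01, 4.92, 9.45, 12.98 and 7.63 CPM and its WT libraries 2.24, 3.42, 3.13 and 1.7 CPM. All PY libraries were higher than all WT libraries, by 1.73 ± 0.37 (edgeR adjusted p = 0.000166).

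Type 6 collagen forms beaded microfibrils around cells, including muscle fibres. Its chains split: col6a1 and col6a2 changed by -0.78 ± 0.14 and -0.63 ± 0.13, and col6a4a by 0.71 ± 0.18. For col6a4a the PY libraries had 34.4, 31.2, 47.0, 39.0 and 31.8 CPM and the WT libraries 27.1, 25.9, 17.3 and 19.7 CPM, without overlap (edgeR adjusted p = 0.00116).

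The median over the 6 basement membrane chains was -0.38, and 3 of them were lower in PY. The genes col4a5 and col4a6, neighbours in the order of protein-coding genes, changed by -1.06 ± 0.25 and -0.69 ± 0.20, both called. The gene col4a1, a chain of nearly all basement membranes, had 85.0, 69.5, 81.1, 109.7 and 103 CPM in PY and 125, 95.2, 156.1 and 119 CPM in WT. These ranges overlapped. The change of -0.47 ± 0.14 (edgeR adjusted p = 0.00726) became -0.34 and was no longer called (edgeR adjusted p = 0.0799) without WT SLC45a2-KO library 3. Its partner col4a2 was at -0.12 ± 0.23, and col4a3 and col4a4 at -0.13 ± 0.62 and -0.29 ± 0.37, none of them called. Of 12 tested laminins, nidogens and other partners of the basement membrane 2 were higher and 0 lower, a share of 16.7% higher that is near the 17.9% of all genes. One was the laminin gene lama5, at 1.56 ± 0.25. The other was lamc1, at 0.32 ± 0.13, whose call was lost without any of 6 libraries.

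Type 17 collagen is a transmembrane protein that anchors basal skin cells. Its gene col17a1a had 74.9, 61.3, 73.9, 73.8 and 83.1 CPM in PY and 55.0, 31.9, 41.7 and 37.8 CPM in WT. The lowest PY library was above the highest WT library, and the change was 0.82 ± 0.20 (edgeR adjusted p = 0.00123). The copy col17a1b was at 0.08 ± 0.26 and did not pass. Of the multiplexins, basement membrane proteins that carry sugar chains, col18a1b changed by -1.61 ± 0.29, whereas its copy col18a1a was at 34.8 ± 4.85 CPM in PY and 34.9 ± 3.03 in WT. Of the type 15 genes col15a1b was at -0.59 ± 0.34, not called, and col15a1a (-0.94 ± 0.37) lost its call without any of 7 of the 9 libraries. The gene col7a1, for the anchoring fibril below the epidermis, was at -0.11 ± 0.25 and did not pass.

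The most positive change of all chains was that of col8a1b, a short-chain collagen that in mammals forms networks in vessel walls and the cornea. In PY SLC45a2-KO the libraries had 21.7, 53.1, 55.0, 47.5 and 56.0 CPM, with library 1 the lowest. In WT SLC45a2-KO they had 2.46, 1.71, 6.04 and 1.89 CPM. The groups did not overlap, and the change was 3.94 ± 0.50 (edgeR adjusted p = 7.93e-07). The related gene col8a2 was lower in PY, at -0.81 ± 0.24, and so was col24a1 at -0.91 ± 0.36, a call lost without any of 6 libraries. Of 5 tested vessel markers 3 were higher in PY and 0 lower, where 17.9% of all genes were higher and 17.7% lower. The vessel sums were 61.5 to 94.5 CPM in PY and 37.9 to 52.4 in WT. The part of these markers in the level of col8a1b was not tested.

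Collagen transcripts were a larger share of the counts in PY larvae edited in TGR5 than in PY larvae with SLC45a2-KO alone. Against PY SLC45a2-KO, 25 of 50 chains were higher and 1 lower, where 11.3% of all genes passed (6.33% higher, 5.01% lower). The median log2 change was 0.64 over the chains and 0.02 over all genes. The collagen share of counts was 0.664% ± 0.076 (SD, n = 5) after TGR5-KO, against 0.386% ± 0.0712 without it. The CPM of 16 chains did not overlap, all of them higher after TGR5-KO, against 8.01% of all genes.

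CYP7a1-KO in PY larvae, compared with the same control libraries, gave 26 chains higher and 1 lower, where 13.4% of all genes passed (7.49% higher, 5.9% lower). The median was 0.68 over the chains and 0.02 over all genes, and the collagen share of counts was 0.652% ± 0.0638 (SD, n = 5). Ranges of 17 chains did not overlap, all of them higher after CYP7a1-KO, against 7.21% of all genes. Without libraries 1 and 2 of PY CYP7a1-KO the calls of col12a1a, col4a6, col17a1b and col7a1l were lost. Because both knockouts share the 5 PY SLC45a2-KO libraries, chance deviations of those libraries enter both comparisons. The same 5 libraries are the PY side of the comparison with WT given above. A chance low in them would both lower a chain in PY and raise it after a knockout, so these results are not independent.

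**Figure D3:**
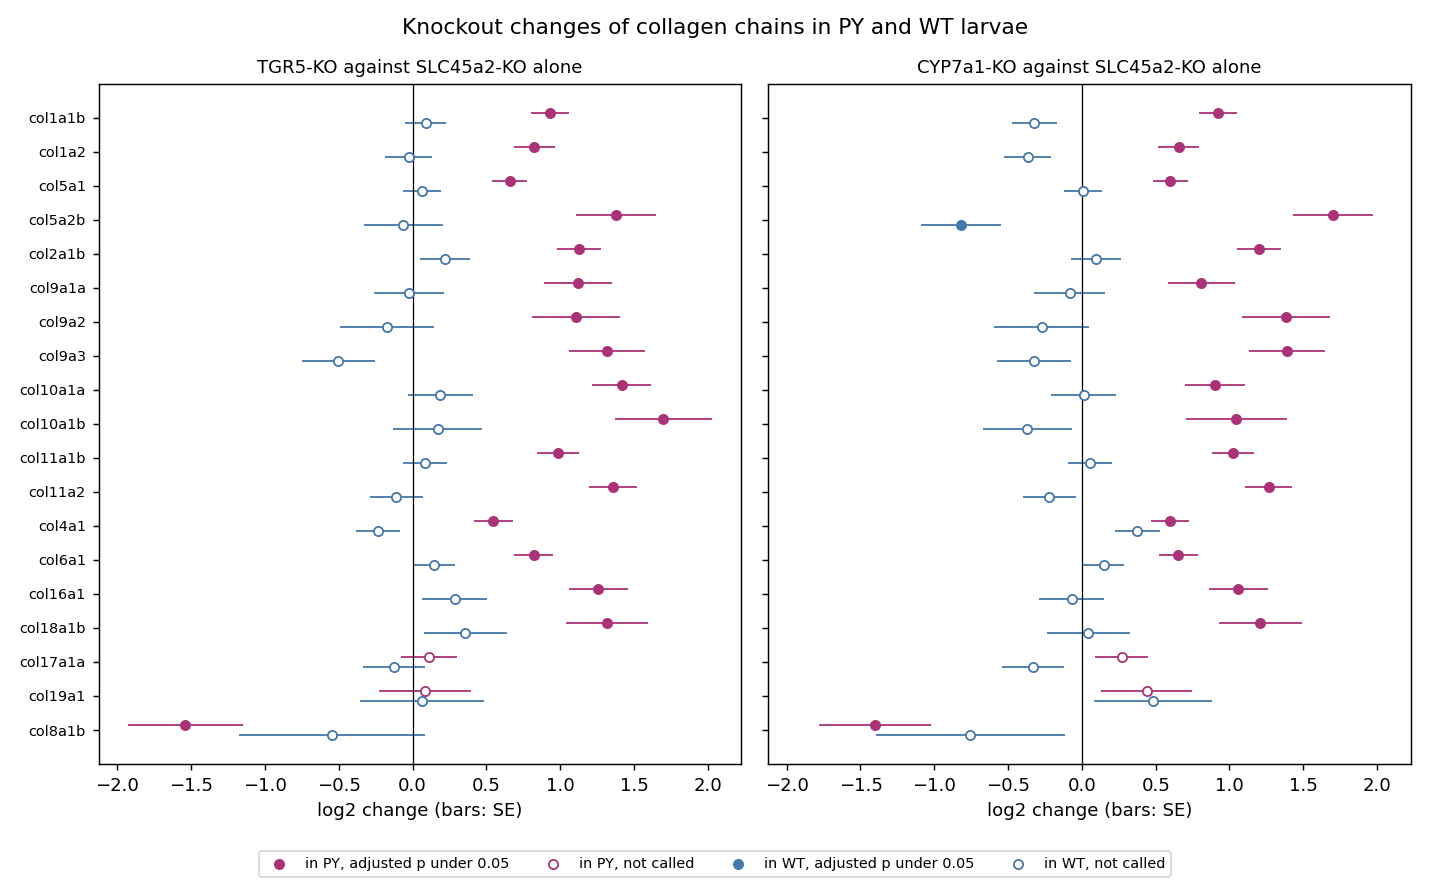
Log2 change (x axis, bars SE) of 19 collagen genes (y axis) after TGR5-KO (left) and CYP7a1-KO (right), each against SLC45a2-KO alone, in PY and in WT larvae, with filled points at an adjusted p under 0.05. In PY all but col17a1a, col19a1 and col8a1b have filled points right of 0 in both panels, and in WT the only filled point is col5a2b after CYP7a1-KO.

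Type 1 genes rose with either knockout in PY. The col1a1b libraries of PY TGR5-KO had 1407, 1485, 2036, 2235 and 1818 CPM, and those of PY CYP7a1-KO had 1891, 1566, 1806, 1700.3 and 1945 CPM. All 10 were above the highest PY SLC45a2-KO library, and the changes were 0.93 ± 0.13 (edgeR adjusted p = 1.38e-06) and 0.92 ± 0.13 (edgeR adjusted p = 1.56e-06). For col1a2 the libraries of PY TGR5-KO had 1579.9, 1512, 1809, 2399.7 and 1907 CPM and those of PY CYP7a1-KO 1397, 1395, 1946, 1524 and 1919.5 CPM. These too did not overlap with PY SLC45a2-KO, and the changes were 0.83 ± 0.14 and 0.66 ± 0.14. In WT neither gene was called with either knockout: col1a1b was at 0.09 ± 0.14 with TGR5-KO and -0.32 ± 0.15 with CYP7a1-KO, and col1a2 at -0.03 ± 0.16 and -0.37 ± 0.16. Though not called, col1a2 with CYP7a1-KO was at 1320 to 1737 CPM, below the 1812 to 2005 CPM of WT SLC45a2-KO without overlap.

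Cartilage chains rose in 8 of 10 cases with each knockout in PY, with medians of 1.22 for TGR5-KO and 1.04 for CYP7a1-KO, and none fell. Among all genes tested 6.33% were higher and 5.01% lower with TGR5-KO, and 7.49% and 5.9% with CYP7a1-KO. The col2a1b libraries were at 294, 263, 295, 235 and 272 CPM in PY TGR5-KO and 379, 203, 265, 345 and 239 CPM in PY CYP7a1-KO, all above every PY SLC45a2-KO library. The changes were 1.13 ± 0.15 (edgeR adjusted p = 9.04e-07) and 1.20 ± 0.15 (edgeR adjusted p = 2.65e-07). For col11a2 the means were 133 ± 24.7 CPM and 124 ± 35.8 CPM (SD, n = 5 each), again without overlap with the control, at 1.36 ± 0.16 and 1.27 ± 0.16. The partner gene col11a1b changed by 0.99 ± 0.14 and 1.02 ± 0.14.

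Several type 9 and 10 chains were spread widely between the pools of a knockout group, though not in every case. The col9a2 libraries of PY TGR5-KO had 86.7, 93.3, 123, 42.3 and 49.96 CPM, and those of PY CYP7a1-KO had 177, 47.0, 71.4, 125 and 58.8 CPM. With TGR5-KO the change was 1.11 ± 0.30 (edgeR adjusted p = 0.0201), and without library 3 of that group it was 0.89 and no longer called (edgeR adjusted p = 0.0603). With CYP7a1-KO it was 1.38 ± 0.30 (edgeR adjusted p = 0.00346). The col9a2 libraries of PY TGR5-KO overlapped with the control, which reached 43.1 CPM, and those of PY CYP7a1-KO did not. For col9a3 the changes were 1.32 ± 0.26 and 1.39 ± 0.26, and for col9a1a 1.12 ± 0.23 and 0.81 ± 0.23. The last of these was not called without PY SLC45a2-KO library 4 or PY CYP7a1-KO library 4. For col9a3 only the TGR5-KO libraries overlapped with the control, and for col9a1a only the CYP7a1-KO libraries. The gene col10a1a had 202, 274, 223, 223 and 258 CPM in PY TGR5-KO and 90.7, 109.7, 158.4, 271 and 193 CPM in PY CYP7a1-KO. The first group was above all controls (1.42 ± 0.20, edgeR adjusted p = 1.72e-05), while the second overlapped with them (0.90 ± 0.20, edgeR adjusted p = 0.0026). For its copy col10a1b the libraries had 8.76, 16.7, 13.1, 23.4 and 14.8 CPM and 6.36, 8.78, 7.07, 17.1 and 8.48 CPM, and both groups overlapped with the controls. The changes were 1.70 ± 0.33 (edgeR adjusted p = 0.000756) and 1.05 ± 0.34 (edgeR adjusted p = 0.0384). The second was not called without PY SLC45a2-KO libraries 2, 3, 4 or 5 or PY CYP7a1-KO libraries 2 or 4.

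The 2 low-count cartilage chains were not called with either knockout. Those were col11a1a, at 1.75 ± 0.62 and 1.02 ± 0.65, and col9a1b, at -0.15 ± 1.03 and -0.69 ± 1.08. Summed over the class, cartilage chains stood at 922.5 ± 89.3 CPM in PY TGR5-KO and 862.4 ± 200.1 CPM in PY CYP7a1-KO (SD, n = 5 each). The summed cartilage markers other than collagens were at 292.4 to 442 CPM and 249.9 to 487.5 CPM. Bone markers were at 339.4 to 537 and 300.9 to 487.3 CPM, and markers of tenocytes and fibroblasts at 601 to 739.5 and 486 to 627.6 CPM. The cartilage and the tenocyte and fibroblast sums of PY TGR5-KO lay above those of PY SLC45a2-KO, while the bone sums of PY TGR5-KO and all 3 sums of PY CYP7a1-KO overlapped with them. Muscle sums were 24440 to 33660 CPM in PY TGR5-KO and 29060 to 38890 CPM in PY CYP7a1-KO, both above the 16660 to 23820 CPM of PY SLC45a2-KO, with 2 of 3 tested muscle markers higher and 0 lower with each knockout. Macrophage sums were 145.9 to 196 CPM and 230.5 to 447.8 CPM against 104.1 to 169.1 CPM, with 1 of 3 tested macrophage markers higher and 1 lower with CYP7a1-KO and none called with TGR5-KO. Beside these muscle and macrophage counts, 6.33% of all genes were higher and 5.01% lower with TGR5-KO, and 7.49% and 5.9% with CYP7a1-KO. The part of all these markers in the collagen changes was not tested.

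Type 5 genes col5a1 and col5a2b changed by 0.66 ± 0.12 and 1.38 ± 0.27 with TGR5-KO in PY and by 0.60 ± 0.12 and 1.70 ± 0.27 with CYP7a1-KO. The call of col5a2a with TGR5-KO was lost without PY SLC45a2-KO library 2 or 3 or PY TGR5-KO library 5. With CYP7a1-KO col5a2a was not called (means of 47.5 CPM and 43.8 in the control), and col5a3a was called with neither knockout. The col5a2b libraries of PY CYP7a1-KO were widely spread, at 65.2, 41.2, 26.4, 29.2 and 18.3 CPM, with libraries 1 and 2 the highest, and the change was 1.17 and still called without those. Type 6 genes col6a1 and col6a2 changed by 0.82 ± 0.13 and 0.66 ± 0.12 with TGR5-KO and by 0.65 ± 0.13 and 0.62 ± 0.12 with CYP7a1-KO. The fibril-associated gene col16a1 changed by 1.26 ± 0.20 and 1.06 ± 0.20, and the multiplexin gene col18a1b by 1.32 ± 0.28 and 1.21 ± 0.28.

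Of the basement membrane chains col4a1 rose with both knockouts in PY, by 0.55 ± 0.13 and 0.60 ± 0.13. Its libraries had 129, 149.3, 146.9, 123 and 107 CPM in PY TGR5-KO and 142.1, 126, 137, 119 and 153.02 CPM in PY CYP7a1-KO, and the second group did not overlap with the control. The col4a6 change was 0.55 ± 0.19 with TGR5-KO, not called, and 0.70 ± 0.19 with CYP7a1-KO. The latter was not called without PY CYP7a1-KO library 1 or without libraries 1 and 2 together (edgeR adjusted p = 0.327 without both). The skin gene col17a1b, which was not called between PY and WT, rose by 0.89 ± 0.24 with TGR5-KO and 1.04 ± 0.24 with CYP7a1-KO, the second not called without libraries 1 and 2 of that group (edgeR adjusted p = 0.0527). The anchoring fibril gene col7a1 changed by 0.79 ± 0.23 and 0.98 ± 0.23. The first of these was not called without PY SLC45a2-KO library 2, PY SLC45a2-KO library 3 or PY TGR5-KO library 1.

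The 4 chains that were higher in PY than in WT were picked with the same PY SLC45a2-KO libraries that served as control here, so chance favours a fall. Of them col8a1b alone fell after the knockouts. Its libraries had 13.03, 8.36, 21.96, 23.9 and 13.3 CPM in PY TGR5-KO and 33.1, 19.1, 10.51, 11.6 and 14.99 CPM in PY CYP7a1-KO. Both groups overlapped with the control, in which library 1 was low, and the changes were -1.54 ± 0.39 (edgeR adjusted p = 0.00988) and -1.40 ± 0.38 (edgeR adjusted p = 0.0155). The other 3 showed no called change with either knockout in PY: col17a1a was at 0.11 ± 0.19 and 0.27 ± 0.18, col19a1 at 0.09 ± 0.31 and 0.44 ± 0.31, and col6a4a at -0.08 ± 0.16 and -0.12 ± 0.16. The summed vessel markers were 48.5 to 60.9 CPM in PY TGR5-KO and 42.1 to 48.5 CPM in PY CYP7a1-KO. Both lay below the 61.5 to 94.5 CPM of the control, the first only just. The part of these markers in the fall of col8a1b was not tested.

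The knockouts were also set directly against each other in PY, and no chain passed. In edgeR 0 of 50 chains passed, where 0.135% of all genes did (0.0773% higher and 0.058% lower with TGR5-KO), with 4 chains at an unadjusted p under 0.05 and 0 called by DESeq2. The median log2 difference between TGR5-KO and CYP7a1-KO was -0.02. For col1a1b it was 0.01 ± 0.13 and for col2a1b -0.08 ± 0.15. A test that does not pass leaves the size of a difference unsettled within these errors.

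In WT larvae few or no chains passed with either knockout. With TGR5-KO 0 of 50 chains passed in edgeR, where 6.49% of all genes did (3.1% higher, 3.4% lower), with 0 at an unadjusted p under 0.05 and 0 called by DESeq2. The median was 0.07. With CYP7a1-KO 1 of 50 passed, where 11.6% of all genes did (4.14% higher, 7.48% lower), and 7 chains had an unadjusted p under 0.05. Ranges of 5 chains did not overlap, all of them lower with CYP7a1-KO, against 20.6% of all genes. With only the compared groups in the fit, 6 chains passed. That 1 of the fit over all groups was col5a2b, at 30.8, 26.3, 24.9 and 31.7 CPM with CYP7a1-KO against 58.8, 47.3, 50.6 and 43.7 CPM without. The groups did not overlap, yet the call (-0.82 ± 0.27, edgeR adjusted p = 0.0472) was lost when any 1 of the 8 libraries was left out. Both comparisons share the WT SLC45a2-KO libraries.

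The knockout change itself differed between backgrounds for many chains. An interaction term, the change in PY minus the change in WT, was positive and called for 14 of 50 chains with TGR5-KO, where 6.71% of all genes passed (3.94% positive, 2.76% negative), and negative for 0. With CYP7a1-KO it was positive for 24 and negative for 0, where 17.8% of all genes passed (10.8% positive, 6.98% negative). The median term was 0.57 for TGR5-KO and 0.87 for CYP7a1-KO over the chains, and 0.04 and -0.00 over all genes. Both terms use the SLC45a2-KO libraries of both backgrounds, so they are not independent of each other or of the comparisons above. For col1a1b the term was 0.85 ± 0.19 (edgeR adjusted p = 0.00349) with TGR5-KO and 1.24 ± 0.20 (edgeR adjusted p = 8.77e-06) with CYP7a1-KO. The second also holds the negative change in WT, which was not called. For col11a2 the term was 1.47 ± 0.24 and 1.49 ± 0.24. For col5a2b with CYP7a1-KO it was 2.52 ± 0.38, from -0.82 in WT and 1.70 in PY. In each cartilage and type 1 gene just named the terms were called also when any single library was left out.

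The background was also compared among larvae with the same knockout. In TGR5-KO larvae 9 of 50 chains were lower and 6 higher in PY than in WT, where 19.9% of all genes passed (11.4% higher, 8.42% lower). Without WT TGR5-KO library 4 only 9 chains passed in all. In CYP7a1-KO larvae 7 were lower and 10 higher, where 23.2% of all genes passed (13.3% higher, 9.96% lower). Without WT CYP7a1-KO library 3 the total was 11. Of the 31 chains that were lower in PY with SLC45a2-KO alone, 9 were again lower with TGR5-KO and 7 with CYP7a1-KO. Lower calls were fewer over all genes too, at 17.7% with SLC45a2-KO alone, 8.42% with TGR5-KO and 9.96% with CYP7a1-KO. How many genes of the whole table were called in the same direction again was not counted, so these overlaps are not shown to be particular to collagens. The 4 chains that were higher with SLC45a2-KO alone were also called higher with each of the other knockouts, but col6a4a with CYP7a1-KO (0.50 ± 0.17) lost its call in 7 of 10 fits that left libraries out. Without PY CYP7a1-KO libraries 1 and 2 it was at 0.39 (edgeR adjusted p = 0.151).

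Cartilage chains made up 5 of the lower chains in each of these comparisons, with medians of -0.52 in TGR5-KO and -0.63 in CYP7a1-KO larvae. Several of these calls were lost when libraries were left out. With TGR5-KO, of 9 fits that each left out 1 library, col11a2 lost its call in 4 and col9a2 in 3. With CYP7a1-KO, of 10 fits that left out 1 library or PY CYP7a1-KO libraries 1 and 2 together, col9a1a lost it in 8, col10a1a in 5 and col11a2 in 3. Without those 2 libraries col10a1a was at -0.30 and col9a1a at -0.42 (edgeR adjusted p = 0.222 and 0.225). The gene with the most negative change in PY, col10a1b, was at -1.73 ± 0.30 (edgeR adjusted p = 7.36e-05) and -1.85 ± 0.31 (edgeR adjusted p = 3.7e-05), and in both its PY libraries lay below its WT libraries. The fibril gene col11a1b was at -0.67 ± 0.15 and -0.60 ± 0.15, while col2a1b, at -0.31 ± 0.16 and -0.11 ± 0.16, was not called. With TGR5-KO col1a1b was at -0.45 ± 0.14, a call lost without WT TGR5-KO library 4 or PY TGR5-KO library 1, and with CYP7a1-KO at -0.05 ± 0.14, not called. The gene col1a2 was at -0.01 ± 0.15 and 0.16 ± 0.15, neither called.

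Both type 17 genes were higher in PY than in WT under either knockout. For col17a1a the changes were 1.06 ± 0.20 and 1.42 ± 0.21, and for col17a1b 1.19 ± 0.26 and 1.15 ± 0.26. The gene col8a1b remained higher by 2.94 ± 0.53 (edgeR adjusted p = 0.00026) and 3.29 ± 0.53 (edgeR adjusted p = 6.22e-05), with no overlap in either case.

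Ratios were formed between chains that belong to 1 molecule or are copies of 1 ancestral gene, and none of their differences passed the test. The 12 ratios examined were chosen with earlier results known, and each was computed from counts within a library. The ratio of col1a1b to col1a2 was 0.918 ± 0.0844 in PY SLC45a2-KO (SD, n = 5, 0.831 to 1.04) and 1.22 ± 0.0429 in WT SLC45a2-KO (SD, n = 4, 1.19 to 1.28), without overlap. The exact permutation test, two-sided, gave p = 0.016, the smallest that 5 against 4 libraries allow. Adjusted over all 36 tests (12 ratios in 3 comparisons) it was 0.052, which was also the smallest value of all 36, so none passed. Every ratio without overlap in a comparison stood at the smallest p that its libraries allow. With so few libraries and 36 tests even such ratios did not pass, so no conclusion is drawn from that.

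The ratio of col10a1b to col10a1a was 0.0498 ± 0.029 in PY SLC45a2-KO (0.0262 to 0.0978) and 0.179 ± 0.0328 in WT SLC45a2-KO (0.141 to 0.221). The ratio of col18a1b to col18a1a was 0.104 ± 0.0444 (0.0486 to 0.154) and 0.315 ± 0.0595 (0.25 to 0.375), and that of col5a2b to col5a2a 0.251 ± 0.116 (0.153 to 0.448) and 0.606 ± 0.112 (0.477 to 0.749). None of these 3 overlapped between the groups. Nor did col9a3 to col9a1a, with means of 0.289 in PY and 0.509 in WT, or col17a1b to col17a1a, at 0.303 and 0.516. The other ratios overlapped, among them col12a1b to col12a1a at 0.541 ± 0.0507 in PY and 0.542 ± 0.0458 in WT. With a knockout in PY the ratio of col18a1b to col18a1a was 0.233 ± 0.0469 (0.186 to 0.288) for TGR5-KO and 0.203 ± 0.0603 (0.155 to 0.307) for CYP7a1-KO, both just above the PY control range. That of col10a1b to col10a1a was 0.0651 ± 0.0233 and 0.0604 ± 0.0159, which overlapped with it.

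**Figure D4:**
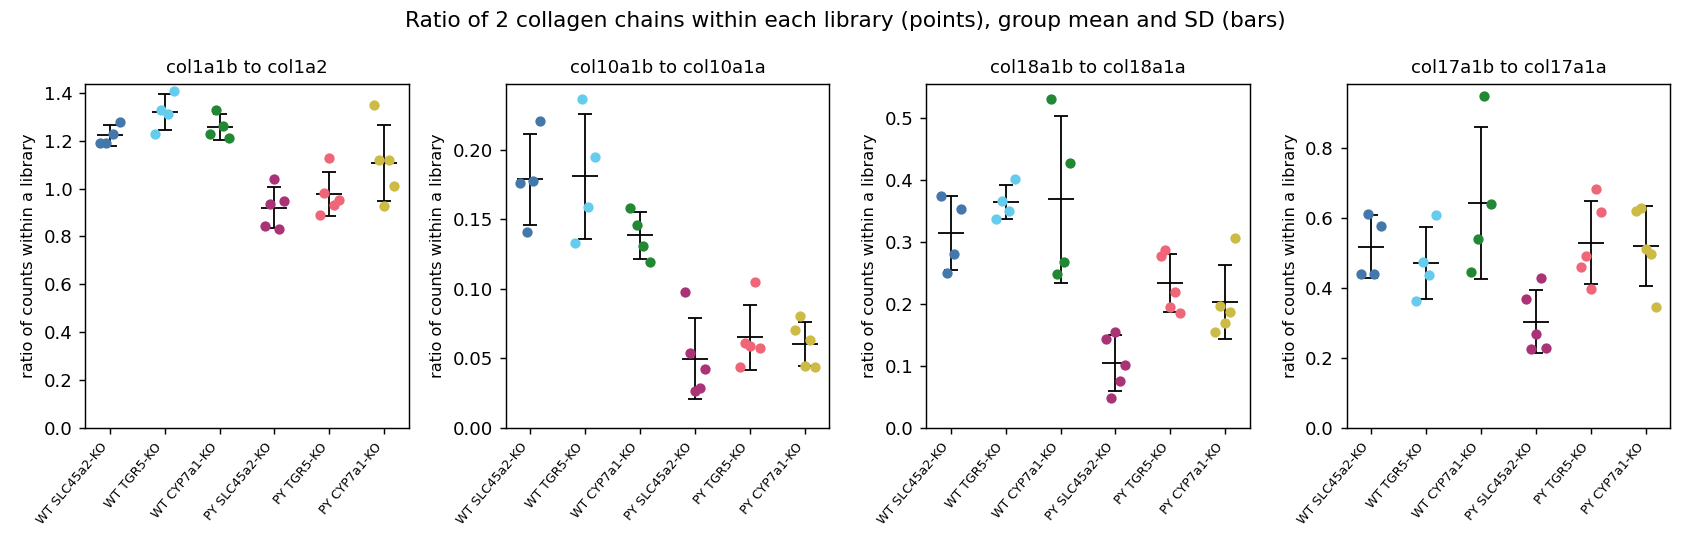
Ratio of 2 collagen genes within each library (y axis) for 4 pairs in the 6 groups (x axis), with points for libraries and bars for mean and SD. For all 4 pairs the PY SLC45a2-KO libraries all lie below the WT SLC45a2-KO libraries.

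The genes that build and break down collagen were examined as 4 lists. New chains are hydroxylated and folded by prolyl hydroxylases and chaperones in the endoplasmic reticulum. They leave it in large transport carriers, are trimmed and cross-linked outside the cell, and are cut by matrix metalloproteinases. Of 60 tested genes of these lists 23 were lower and 9 higher in PY than in WT with SLC45a2-KO alone, where 17.7% of all genes were lower and 17.9% higher. In PY 12 were higher and 6 lower after TGR5-KO (6.33% and 5.01% of all genes), and 6 higher and 7 lower after CYP7a1-KO (7.49% and 5.9% of all genes).

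Among the 19 tested genes of folding and hydroxylation 7 were lower and 2 higher in PY than in WT, with SLC45a2-KO alone. The collagen chaperone gene serpinh1a changed by -1.47 ± 0.25, and fkbp10b and fkbp9, which encode prolyl isomerases of the endoplasmic reticulum, by -2.15 ± 0.38 and -1.59 ± 0.26. In the opposite direction went p4ha2, a prolyl hydroxylase subunit, at 1.63 ± 0.35. Of 11 export genes 5 were lower and 2 higher. The coat protein gene sec24d, needed for collagen export in zebrafish cartilage, changed by -1.29 ± 0.18, and the receptor gene kdelr2b by -1.46 ± 0.18. The transcription factor genes creb3l1 and creb3l2, which act on the secretory pathway, went opposite ways, at -0.93 ± 0.18 and 1.08 ± 0.17. After TGR5-KO in PY they changed by 0.79 ± 0.18 and -0.94 ± 0.15, and after CYP7a1-KO by 0.85 ± 0.18 and -0.83 ± 0.15.

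Of 12 genes of processing and cross-linking 4 were lower and 1 higher in PY. The cross-linking oxidase gene loxl4 changed by -1.24 ± 0.19 in PY against WT, by 1.20 ± 0.18 after TGR5-KO in PY and by 1.30 ± 0.18 after CYP7a1-KO. Of 18 genes of degradation 7 were lower and 4 higher. The gelatinase gene mmp2 changed by -1.10 ± 0.17. In the other direction went timp2b, a metalloproteinase inhibitor, at 2.13 ± 0.30, and the collagenase gene mmp13a, at 3.55 ± 0.70 but 2.12 without PY SLC45a2-KO library 2.

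In WT larvae the folding list held more calls than the chains. With CYP7a1-KO 7 of its 19 tested genes were lower and 0 higher, against 11.6% of all genes, and 5 of 11 export genes were lower and 0 higher. The summed level of the folding list was 697.2 ± 57.3 CPM in WT CYP7a1-KO (SD, n = 4, 626.8 to 762) and 1303 ± 79.9 CPM in WT SLC45a2-KO (SD, n = 4, 1202 to 1397). The genes named next were chosen after their values were seen. The chaperone genes hsp90b1 and pdia3, which serve all secreted proteins, changed by -2.12 ± 0.52 and -0.78 ± 0.15, and the isomerase genes fkbp7 and ppib by -1.52 ± 0.27 and -0.64 ± 0.13. In this comparison the hepatocyte markers moved too: 4 of 5 were lower and 0 higher, where 7.48% of all genes were lower and 4.14% higher. The hepatocyte sums were 6537 to 7530 CPM against 10710 to 13980 CPM, with no marker at 0. The part of these markers in the change of the folding list was not tested.

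With TGR5-KO in WT 3 of the 19 folding genes were higher and 0 lower, against 6.49% of all genes. Chosen in the same way, they were serpinh1b, a copy of the collagen chaperone gene, at 2.40 ± 0.37, p4ha2 at 1.34 ± 0.36 and p3h1, a prolyl hydroxylase gene, at 1.01 ± 0.29. Between the knockouts in WT, with 21.1% of all genes passing (11.8% higher, 9.26% lower), 13 of the 19 were higher with TGR5-KO than with CYP7a1-KO and 0 lower. Of the 50 chains 6 were higher and 1 lower, a count of 7 that rose to 13 with only the compared groups in the fit, and fell to 1 without WT TGR5-KO library 4 and to 2 to 4 without any of the other 7 libraries. The 1 lower chain was col4a1, at 101, 99.9, 104 and 116 CPM with TGR5-KO and 165.5, 175, 150.2 and 151 CPM with CYP7a1-KO (-0.61 ± 0.15, edgeR adjusted p = 0.00181).

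**Figure D5:**
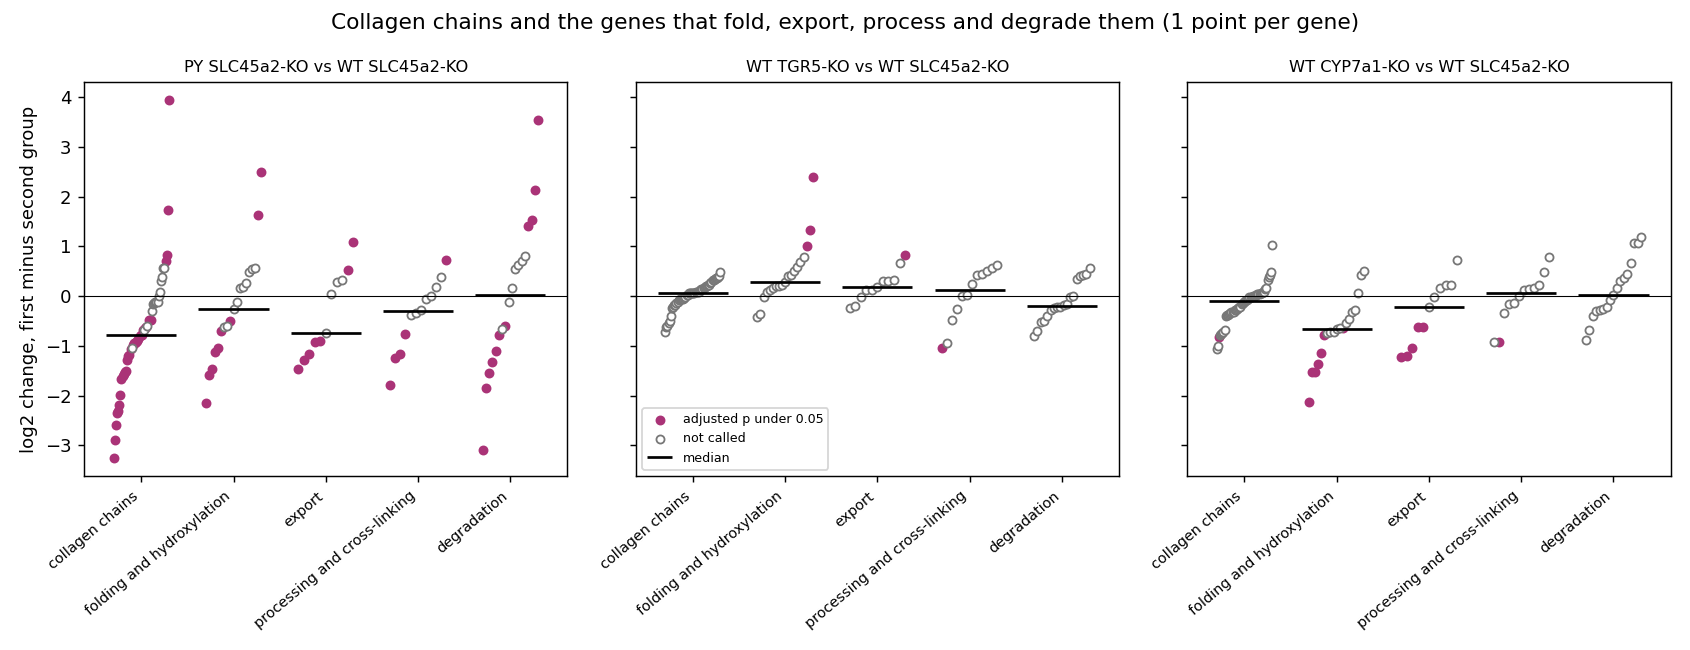
Log2 change (y axis, first minus second group) of each tested collagen chain and of the genes of 4 lists (x axis) in 3 comparisons, with filled points at an adjusted p under 0.05 and a line at the median; mrc2, with no counts in WT CYP7a1-KO, is not drawn there. In WT CYP7a1-KO against WT SLC45a2-KO the folding and export lists hold 7 and 5 filled points below 0, and the chains 1.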

How the data were processed

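Total RNA of pooled whole larvae was made into 3′ mRNA libraries (Lexogen QuantSeq), per the labels' protocols. Raw counts of reads per gene were deposited for 27 libraries, per the labels, beside CPM values that the authors derived from those counts (each is count over column total, within 5e-04). Builds danRer10 and GRCz11 appear in the submitters' processing notes; which was used, the aligner, the counter and its strand setting are not stated there. Reads of near-identical copies or antisense partners cannot be told apart.

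The counts went into edgeR 4.0.16 (R 4.3.3) with TMM factors of 0.909 to 1.07, the default filter, 1 mean per group, all 27 libraries sharing the estimate of spread, the robust quasi-likelihood test and Benjamini-Hochberg adjustment at 0.05. The biological coefficient of variation over all genes was 0.264. P-values measure the spread between pools, which may be technical. There were 9 comparisons between groups and 2 interactions. Titles gave the groups, and the labels give no batch.

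Members, classes and gene lists were chosen with earlier results of these data known. Named chains were the 4 most abundant per class, up to 6 per direction and comparison with the largest called change at 5 CPM or more without overlap, and up to 4 that opposed their class; any chain of types 1, 2, 4, 9, 10 and 11 may be given. Of each other list up to 4 genes per direction with the largest called change in PY against WT were named, at a mean of 5 CPM or more, and exceptions are marked. Ratios of chains had exact permutation tests.

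As alternatives, DESeq2 1.42.0, RLE factors, and TMM leaving out the 6 entries above 1% of counts were run, as were fits without a filter, with a filter at 5 CPM in 4 libraries, without robust estimation, with the compared groups alone, with a block for replicate number, without each library in turn and without PY CYP7a1-KO libraries 1 and 2. Gene order was read from RefSeq (GRCz12tu) over protein-coding genes, without coordinates. An allele of the PY background is not reported here.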

Additional observations from a re-analysis of the deposited data

Results flagged for a closer look

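A library far from the others of its group was found in 17 of 240 combinations of a named chain and a group, by Dixon's criterion at the 95% level. Chance alone gives such a library in about 5% of groups, so 12 would be usual. WT SLC45a2-KO library 1 was high for col11a2 (265.8 CPM), col12a1a (327.8 CPM), col8a2 (18.79 CPM) and col18a1a (39.38 CPM). WT TGR5-KO library 4 was high for col6a1 (142.9 CPM) and for col5a3a (50.54 CPM). In WT CYP7a1-KO library 3 stood high for col11a2 (188.7 CPM). In the same group library 1 stood low for col14a1b (19.57 CPM) and col27a1b (7.826 CPM), and library 2 stood apart for col7a1l (9.227 CPM).

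In PY SLC45a2-KO library 1 stood high for col5a2b (21.02 CPM) and low for col8a1b (21.72 CPM), library 2 stood low for col12a1a (161.8 CPM), and library 5 stood high for col15a1a (6.995 CPM). In PY TGR5-KO library 4 stood apart for col5a2b (36.29 CPM). In PY CYP7a1-KO library 5 was high for col16a1 (110.0 CPM) and library 4 for col10a1b (17.11 CPM).

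The effect of a knockout differed between PY and WT, by the interaction term of the edgeR fit, for 14 named chains with TGR5-KO. In 9 the call held when any single library was left out: col2a1b at 0.90, col10a1a at 1.23, col11a1b at 0.90, col11a2 at 1.47, col9a3 at 1.82, col1a1b at 0.85, col1a2 at 0.85, col5a2b at 1.44 and col4a1 at 0.78. The others lost the call without 1 of several libraries. The term of col6a1 was 0.67 and lost its call without WT SLC45a2-KO library 2, WT TGR5-KO library 1, PY SLC45a2-KO library 2 or PY TGR5-KO library 5 (edgeR adjusted p up to 0.0549). Those of col5a1 at 0.59 and col9a1a at 1.14 lost theirs in 8 of 18 such fits each (up to 0.0913 and 0.0717), and those of col16a1 at 0.97 and col10a1b at 1.53 in 12 of 18 each (up to 0.0894 and 0.0706).

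With CYP7a1-KO 23 named chains were found by the same test. The call held in all fits without a library for 13 of them: col2a1b at 1.11, col11a1b at 0.97, col11a2 at 1.49, col9a2 at 1.66, col9a3 at 1.71, col1a1b at 1.24, col1a2 at 1.02, col6a2 at 0.86, col5a2b at 2.52, col5a3a at 1.49, col16a1 at 1.13, col14a1b at 1.20 and col7a1 at 1.25. The term of col5a1 was 0.59 and lost its call without WT SLC45a2-KO library 1 (edgeR adjusted p = 0.0554). That of col24a1 was 1.59 and lost it without WT SLC45a2-KO library 3 or WT CYP7a1-KO library 3 (up to 0.085). That of col21a1 was 1.1 and lost it without WT SLC45a2-KO library 3, PY SLC45a2-KO library 2, or PY CYP7a1-KO library 1 or 5. The remaining terms lost the call in 6 to 14 of 19 fits, 18 without 1 library and 1 without 2: col7a1l at 1.24, col4a6 at 0.86, col18a1b at 1.16, col10a1b at 1.42, col17a1b at 1.06, col10a1a at 0.89 and col14a1a at 1.26. Of these, col4a6, col17a1b and col14a1a also lost it without PY CYP7a1-KO libraries 1 and 2 together. Their highest edgeR adjusted p in these fits ranged from 0.0724 to 0.234.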

How the results depend on the processing

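Of 203 called changes of named genes 150 kept the call in every alternative, 53 lost it in at least 1, and 0 changed direction. The number of called chains in PY against WT with SLC45a2-KO alone was 31 to 35 when single libraries were left out, against 35, and for the knockouts in PY 22 to 27 (TGR5-KO, against 26) and 23 to 28 (CYP7a1-KO, against 27). The interactions gave 10 to 15 against 14 (TGR5-KO) and 16 to 24 against 24 (CYP7a1-KO). Counts that moved by over 1.5 times included those of the comparisons given next, among them PY against WT under either knockout. In WT, CYP7a1-KO against SLC45a2-KO gave 1 called chain, 0 with RLE factors, 2 without a filter, 6 with only the groups compared and 0 to 1 without single libraries. TGR5-KO against CYP7a1-KO gave 7 in WT, 4 without a filter, 13 with only the groups compared and 1 to 4 without single libraries. In PY the same contrast gave 0, 1 without a filter and 0 to 1 without single libraries, the 1 being without PY CYP7a1-KO library 4. PY against WT gave 15 with TGR5-KO (9 to 14 without single libraries, 9 without WT TGR5-KO library 4) and 17 with CYP7a1-KO (11 to 19, 11 without WT CYP7a1-KO library 3). The cause was not tested. Replicate numbers did not pair the libraries: over 39 same-numbered pairs the correlation of deviations from the group means was -0.128 to 0.0738, and for 5 of 27 libraries the best match had the same number. With the replicate block the counts of called chains, in the order PY against WT, TGR5-KO and CYP7a1-KO in PY and both in WT, were 34, 26, 26, 0 and 1. Under the same block PY against WT gave 14 with TGR5-KO and 15 with CYP7a1-KO, the knockouts against each other 0 in PY and 6 in WT, and the interactions 14 and 20. Floors of 0.481 to 0.888 CPM limit the chains of lowest count.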

Other observations

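The gene mrc2, for a receptor that takes up collagen fragments, had 0 counts in all 4 WT CYP7a1-KO libraries. It had 66 counts in the 4 WT SLC45a2-KO libraries (2.83 to 4.28 CPM) and 56 in the 4 WT TGR5-KO libraries (2.44 to 4.13 CPM). Against a floor of 3 counts per library, mrc2 in WT CYP7a1-KO was at least 4.96-fold below the mean of the WT SLC45a2-KO libraries. In PY CYP7a1-KO, in contrast, it had 183 counts over 5 libraries (5.52 to 11.8 CPM), close to the 5.13 to 11.3 CPM of PY TGR5-KO. The gene mrc2 was chosen after its values were seen. It was not the only listed gene without counts in WT CYP7a1-KO alone. The prolyl hydroxylase gene p4ha1b of the folding list also had none there and some in every other group.

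Some collagen genes lie side by side in the genome, by the order of protein-coding genes in a RefSeq assembly. Genes of other kinds were not counted. Neighbours with no protein-coding gene between them were col4a1 and col4a2, col4a3 and col4a4, col4a5 and col4a6, and col9a2 and col16a1. The first pair, of which only col4a1 was called, was at -0.47 ± 0.14 and -0.12 ± 0.23 in PY against WT with SLC45a2-KO alone, at 0.55 ± 0.13 and 0.08 ± 0.22 with TGR5-KO in PY, and at 0.60 ± 0.13 and 0.45 ± 0.22 with CYP7a1-KO in PY. The pair of col9a2 and col16a1, which belong to different classes, changed by -2.30 ± 0.32 and -1.19 ± 0.21, by 1.11 ± 0.30 and 1.26 ± 0.20, and by 1.38 ± 0.30 and 1.06 ± 0.20. With 1 protein-coding gene between them lay col6a1 and col6a2, and col19a1 and col9a1b. The last pair changed in opposite directions in PY against WT, by 1.73 ± 0.37 and -2.60 ± 0.88.

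The ceramide transfer protein gene col4a3bpb, whose symbol only resembles a collagen name, was not called in any of the 9 comparisons between groups or the 2 interactions, and was at 0.22 ± 0.20 in PY against WT with SLC45a2-KO alone.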
